A study of Mus musculus with 8 samples.

Results

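Nr4a1, Nr4a2 and Nr4a3 make up the NR4A subfamily of nuclear receptors. Nr4a1 lies on chromosome 15 (101254269 to 101274795, plus strand), Nr4a2 on chromosome 2 (57106830 to 57124003, minus strand) and Nr4a3 on chromosome 4 (48045153 to 48086447, plus strand) of GRCm38, by the GENCODE annotation. They were taken by gene symbol from the deposited tables, where they are 3 of 23284 listed genes. The group was selected on its FPKM values in treated against PBS libraries, already known from these data. Its levels and its treated-against-PBS differences are therefore given as description, without a test. Tests are given for comparisons that did not serve to pick the genes: glucose with lipid against glucose, one pair of PBS libraries against the other, and the difference between the treatment effects.

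NR4A proteins bind DNA through zinc fingers like other nuclear receptors, but their ligand pocket is filled by side chains of the protein itself, and no classical hormone ligand is known. Their activity is therefore set largely by how much of them is made, and their genes are immediate early genes, transcribed within minutes of signals that act through cAMP, calcium or growth factor receptors. In haematopoietic stem cells Nr4a1 and Nr4a3 are known to restrain proliferation, and mice lacking both develop acute myeloid leukaemia.

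The libraries came from bone marrow cells sorted as Lineage- Sca-1+ c-Kit+ (abbreviated LSK), which include the stem cells of blood and their early progenitors, of male C57BL/6 mice aged 12 to 13 weeks. Mice fasted for more than 14 hours were injected intravenously over 7 days with glucose at 2 g/kg, with the same glucose plus 6 ml/kg of a 20% lipid emulsion (Intralipid), or with PBS. Marrow was collected on day 8. The files hold 2 libraries of glucose (letters A and B), 2 of glucose with lipid (H and I) and 4 of PBS (H, I, J and K). Each treatment had its own PBS controls, and these were taken from the letters and from a tag in the column names as PBS H and I for glucose with lipid and PBS J and K for glucose, an inference from names. The labels call the libraries biological replicates and do not say whether each is 1 mouse or a pool, so p-values measure only the spread between these libraries.

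Values were FPKM, that is, fragments per kilobase of transcript and scaled to the size of the library. Low values of single-transcript genes fell at whole multiples of 1 fragment, which put the depth at about 5750000 to 8200000 fragments per library. The gate genes Kit and Ly6a (Sca-1) stood at 164.1 to 197.8 and 295.4 to 423.6 FPKM in the 8 libraries. One library stood apart. Glucose with lipid H held 64970 FPKM summed over 10 neutrophil markers, against 137.6 to 441.1 in the other 7, and it also had the highest sums of monocyte, B cell, erythroid, mast cell and stromal markers. Log2 differences of Nr4a1 and Nr4a2 that use this library are therefore given with and without it, except those with changed controls or settings. Nr4a3 is given library by library.

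The promoters of the 3 genes are shown first because all of them carry the same short element. The core of the cAMP response element, the DNA site of the transcription factor CREB, reads CGTCA on one strand and TGACG on the other. The RefSeq table on GRCm38.p6 gives 250 bases upstream of each start site, and in each of them 4 such cores were found. Of 32851 promoter windows of the same length, 17.8% held at least 1 core on either strand and 0.137% held 4 or more. The sequences are printed 5′ to 3′ on the gene's own strand, with the cores in capitals. For Nr4a3 only the first 98 bases are printed, since the GENCODE gene begins 152 bases upstream of the start site used by the table. The Nr4a1 window lies directly before the start of 2 of its 4 GENCODE transcripts and holds 0 bases of the gene's annotated exons, but it is inside the gene's span, in an intron of 1 transcript that begins 12577 bases upstream of the RefSeq start.
Nr4a1, chr15:101266596-101266845, plus strand: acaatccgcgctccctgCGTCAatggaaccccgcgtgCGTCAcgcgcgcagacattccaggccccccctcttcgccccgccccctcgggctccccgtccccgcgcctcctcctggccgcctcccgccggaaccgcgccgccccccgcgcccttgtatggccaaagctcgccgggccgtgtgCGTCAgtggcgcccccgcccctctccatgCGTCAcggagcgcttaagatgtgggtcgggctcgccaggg
Nr4a2, chr2:57124004-57124253, minus strand: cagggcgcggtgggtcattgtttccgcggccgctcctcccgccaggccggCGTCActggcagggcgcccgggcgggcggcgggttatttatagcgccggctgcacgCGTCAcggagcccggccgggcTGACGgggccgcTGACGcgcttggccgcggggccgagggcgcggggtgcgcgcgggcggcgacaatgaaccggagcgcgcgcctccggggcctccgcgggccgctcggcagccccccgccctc
Nr4a3, chr4:48045055-48045152, plus strand: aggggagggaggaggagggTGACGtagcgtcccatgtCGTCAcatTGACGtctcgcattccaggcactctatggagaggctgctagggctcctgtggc

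In Nr4a1 all 4 cores point along the gene and each is preceded by TG, so that each reads TGCGTCA, a word held at least once by 1.75% of windows and not found in the windows of Nr4a2 and Nr4a3. Those of Nr4a1 lie in 2 close pairs, the nearer one 69 to 36 bases upstream of the start. Nr4a2 has 2 cores in each orientation. Nr4a3 has 1 along the gene and 3 on the other strand, of which 1 lies within the GENCODE gene and is not printed. The full palindrome TGACGTCA, the AP-1 word TGANTCA, the NR4A monomer site AAAGGTCA and the serum response (CArG) box were in none of the 3 windows, on either strand. A match to the MEF2 site was found once, in Nr4a2. The windows are rich in G and C, at 74.4%, 80% and 63.6% for Nr4a1, Nr4a2 and Nr4a3, against a median of 52.4% over all windows. The core itself contains the letters CG, and the shares over all windows were not matched for G and C. Only exact matches to each word or pattern were counted, so a word not found does not exclude a related site. These matches are letters in a window, and no binding was measured.

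**Figure D1:**
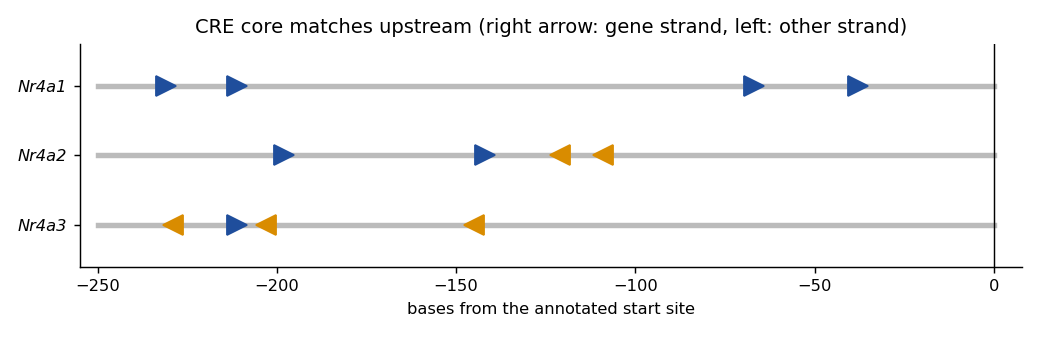
Positions of the cAMP response element (CRE) core in the 250 bases upstream of the RefSeq start site (x axis, bases; 0 is the start site) of each NR4A gene, with right arrows for cores on the gene's strand and left arrows for cores on the other. Each gene has 4, in different spacings, and the nearest to a start site are those of Nr4a1.

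Nr4a1 (NUR77) was the most abundant member in every library. It stood at 304.3 and 177 FPKM after glucose in A and B, and at 219.2 and 201.3 FPKM after glucose with lipid in H and I. In PBS H, I, J and K it stood at 46.99, 28.31, 24.75 and 27.05 FPKM. Every treated library lay above every PBS library, the nearest values being 177 and 46.99 FPKM. Such a complete separation upward was seen in 3.55% of the 11931 genes tested. Against its own PBS pair alone, it was seen in 22.3% of genes after glucose and in 22.2% after glucose with lipid. By the longest annotated transcript, the PBS values rested on about 376 to 752 fragments and the treated ones on about 2891 to 5640. In bulk RNA, a change in the number of cells that express the gene and a change of RNA per cell cannot be told apart.

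The summed level of 8 B and plasma cell markers separated the libraries in the same way as the NR4A genes, at 73.05 to 196.4 FPKM in treated and 44.44 to 62.95 FPKM in PBS libraries. In the 7 libraries other than glucose with lipid H, Cd79b held most of that sum, and the B cell genes Cd79a, Ms4a1, Pax5 and Ebf1 stood at 0 to 0.38 FPKM. The part of these markers in the NR4A values was not tested.

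Group means of Nr4a1 were 240.6 ± 90 FPKM (SD, n = 2) after glucose against 25.9 ± 1.63 in PBS J and K, a ratio of 9.29. After glucose with lipid they were 210.2 ± 12.6 FPKM against 37.7 ± 13.2 in PBS H and I, a ratio of 5.58. On the scale of log2(FPKM + 1), the difference was 3.12 ± 0.28 (SE, limma) after glucose and 2.49 ± 0.28 after glucose with lipid, where 1.39% and 2.24% of genes had a difference over 1. The difference over all treated and all PBS libraries was 2.8 ± 0.20 (SE, limma). Without the library rich in neutrophil markers it was 2.77, and the glucose with lipid difference was 2.43 in place of 2.49. At the level of the whole transcriptome, Nr4a1 ranked between 250 and 525 among 11931 genes by FPKM in the treated libraries, and between 2574 and 4506 in PBS.

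Nr4a2 (NURR1), best known for its part in dopaminergic neurons, was lower than Nr4a1 in every library. It stood at 9.85 and 5.51 FPKM after glucose and at 5.72 and 7.05 FPKM after glucose with lipid. In PBS H and I it stood at 4.07 and 4.27 FPKM, and in PBS J and K at 1.57 and 1.8. The treated libraries again lay above all PBS libraries, but the gap was narrow, from 4.27 to 5.51 FPKM. The control pairs were themselves apart, at 4.17 ± 0.139 FPKM (SD, n = 2) in H and I and 1.69 ± 0.160 in J and K, the latter resting on about 33 and 38 fragments.

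The difference of Nr4a2 from PBS therefore depended on the pair used. After glucose the log2 difference was 1.65 ± 0.26 (SE) from PBS J and K, and 0.70 from PBS H and I. After glucose with lipid it was 0.51 ± 0.26 from PBS H and I (0.64 without glucose with lipid H), and 1.45 from PBS J and K. Over all treated and all PBS libraries it was 1.08 ± 0.19, and 1.14 without glucose with lipid H. The limma test called 0.31% of genes higher and 0.0168% lower over all treated and all PBS libraries.

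Nr4a3 (NOR1) was the least abundant member and did not reach 1 FPKM in any library, so it was below the filter for testing. Its values were 0.435 and 0.244 FPKM in the glucose libraries, and 0.553 and 0.571 FPKM where lipid was added. It was listed at 0 in PBS H, J and K and at 0.0857 FPKM in PBS I. All 4 treated libraries thus lay above all 4 PBS libraries, which held for 2.28% of all 23284 listed genes. By the longest transcript, the value in PBS I stood for about 3 fragments and the treated ones for about 9 to 27. No fold change is given against groups listed at 0 or resting on so few fragments. With a shorter transcript model these fragment numbers would be smaller. Scaled by depth, the treated values lay near whole multiples of the PBS I value. By the spacing of low values given above, PBS I may hold as few as 1 fragment, and the treated libraries about 3 to 9.

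**Figure D2:**
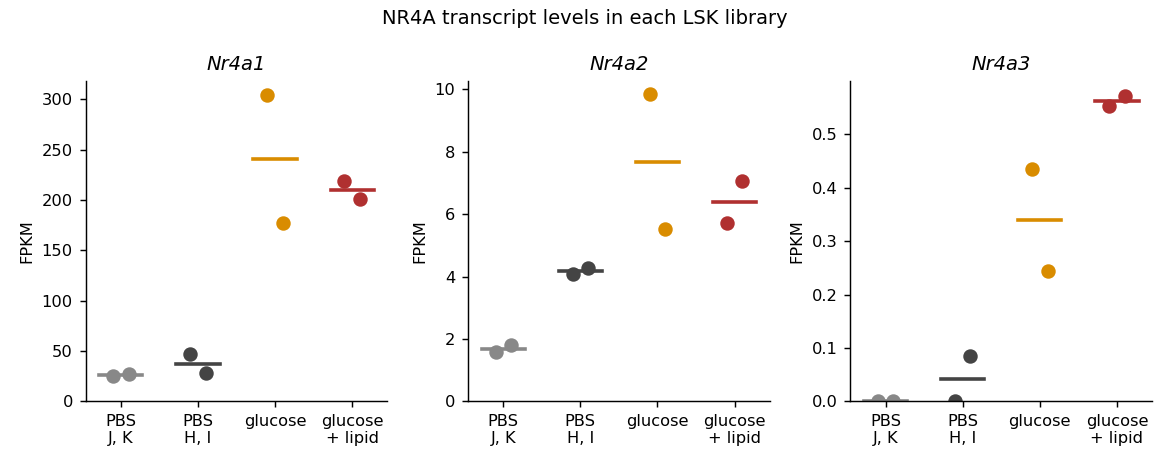
FPKM (linear y axes from 0) of Nr4a1, Nr4a2 and Nr4a3 in each library, with 1 point per library and a line at each group mean (n = 2 libraries per group). The 4 treated libraries lie above the 4 PBS libraries in each panel, and the gap between 4.27 and 5.51 FPKM in Nr4a2 is narrow.

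The order Nr4a1, Nr4a2, Nr4a3 held in all 8 libraries, on the FPKM scale, which is per transcript length. Nr4a1 made up 96.4% to 97.2% of the summed NR4A FPKM in treated libraries, and 86.7% to 94% in PBS. Neighbours in that order did not overlap. The lowest Nr4a1 value was 24.75 FPKM against a highest Nr4a2 value of 9.85, and the lowest Nr4a2 value was 1.57 FPKM against a highest Nr4a3 value of 0.571.

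Adding lipid to glucose did not give a detectable further difference for Nr4a1 or Nr4a2. The direct log2 difference of glucose with lipid from glucose was -0.14 for Nr4a1 (95% interval -0.80 to 0.52, limma adjusted p = 0.971). For Nr4a2 it was -0.19 (95% interval -0.80 to 0.42, limma adjusted p = 0.938). These intervals still allow differences of up to 0.80 on the log2 scale. Without glucose with lipid H the differences were -0.20 for Nr4a1 and -0.06 for Nr4a2. The treated groups overlapped for both genes, because glucose A was the highest and glucose B the lowest of the 4 treated libraries. For Nr4a3 both libraries of glucose with lipid lay above both of glucose, as they did upward in 17.1% of genes tested. With no filter on low values its log2 difference was 0.23 (limma unadjusted p = 0.0384, adjusted p = 0.848). Across the transcriptome, limma called 0.0168% of genes higher here and 0% lower, while 638 had an unadjusted p under 0.05.

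The PBS pairs, which share their treatment, were compared in the same way. Nr4a1 was higher in H and I than in J and K by 0.48 on the log2 scale (95% interval -0.18 to 1.14, limma adjusted p = 0.443), by 0.12 without PBS H and by 0.84 without PBS I. Nr4a2 was higher by 0.95 (95% interval 0.34 to 1.56, unadjusted p = 0.00743), which did not pass over all genes (limma adjusted p = 0.164). In this comparison 24.4% of genes had both H and I above both J and K, and 0.0419% were called higher and 0.00838% lower. Other cell markers also differed between these pairs. The sum of 6 mast cell and basophil markers was 207.5 and 214.3 FPKM in PBS H and I against 90.39 and 20.67 in J and K, and that of 10 erythroid markers was 807.8 and 788.9 against 572.9 and 297.4. The neutrophil, monocyte, T and NK cell and megakaryocyte sums were lower in H and I than in J and K. The part of these markers in the difference of Nr4a2 was not tested. The effect of glucose with lipid minus that of glucose was -0.62 for Nr4a1 (95% interval -1.56 to 0.31, limma adjusted p = 0.556). For Nr4a2 it was -1.14 (95% interval -2 to -0.28, limma unadjusted p = 0.0162, adjusted p = 0.337). Neither passed over all genes, of which 1456 had an unadjusted p under 0.05 here. Without glucose with lipid H these differences of effects were -0.68 for Nr4a1 and -1.01 for Nr4a2. With single libraries left out they ranged from -1.01 without glucose B to -0.23 without glucose A for Nr4a1, and from -1.51 to -0.77 for Nr4a2 without the same libraries. For both genes most of the difference of effects is the difference between the control pairs, 0.48 for Nr4a1 and 0.95 for Nr4a2.

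**Figure D3:**
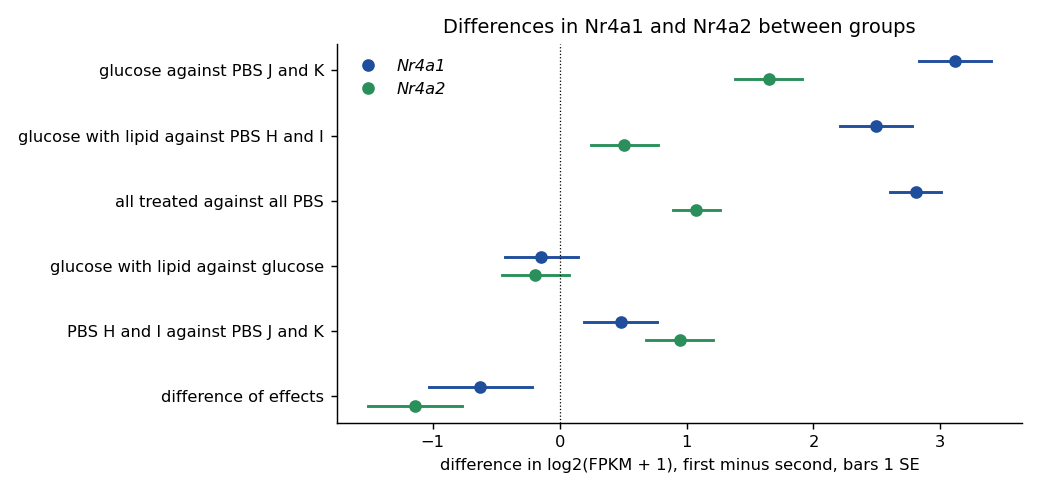
Differences in log2(FPKM + 1) (x axis) for Nr4a1 and Nr4a2 in each comparison on the y axis, with points for the limma estimate and bars of 1 SE, where the difference of effects is glucose with lipid minus glucose. Nr4a1 lies at 2.49 to 3.12 in the treatment comparisons, Nr4a2 at 0.51 to 1.65, and both lie near 0 for glucose with lipid against glucose.

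The rest of the nuclear receptor family, hormone, vitamin and lipid receptors and other orphans, showed smaller differences than Nr4a1. Of 46 other nuclear receptor genes listed, 23 were tested, and limma called 0 of them in either treatment comparison, where it called 0.0922% and 0.0587% of all genes higher after glucose and after glucose with lipid. At an unadjusted p under 0.05, 1 was higher and 2 were lower after glucose, and 2 were higher and 0 lower after glucose with lipid. Over all genes, 6.41% were higher and 8.44% lower at this unadjusted level after glucose, and 5.87% and 5.93% after glucose with lipid. Over all treated against all PBS libraries their log2 differences ran from -0.28 to 0.50, and their median was 0.13, against -0.01 over all genes. Nr4a1 ranked first of 49 family members by FPKM in all 4 treated libraries and in PBS H, and at rank 3 in PBS I, J and K. Nr4a2 ranked between 16 and 20 in PBS and between 10 and 15 in treated libraries.

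The receptors most abundant beside Nr4a1 were Nr1h2, Rxrb and Nr3c1. Nr1h2 (LXR beta, an oxysterol receptor) had 34.75 to 42.34 FPKM in treated and 29.87 to 39.88 in PBS libraries. Rxrb, a retinoid X receptor of the class with which Nr4a1 and Nr4a2 can pair on DNA, had 24.91 to 36.9 FPKM in treated and 32.98 to 41.26 in PBS libraries, with log2 differences of -0.36 ± 0.11 after glucose and -0.19 ± 0.11 after glucose with lipid (limma adjusted p = 0.25 and 0.558). Nr3c1, the glucocorticoid receptor, had 18.23 to 22.92 FPKM in treated and 15.24 to 20.05 in PBS libraries. Among receptors at a mean of 3 FPKM or more, the others with larger differences were Rora, Rara and Vdr. Their mean log2 differences were 0.44, 0.33 and 0.30 over all treated and all PBS libraries. Pparg, below that level, differed by 0.50. None of these ranges separated treated from PBS libraries.

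**Figure D4:**
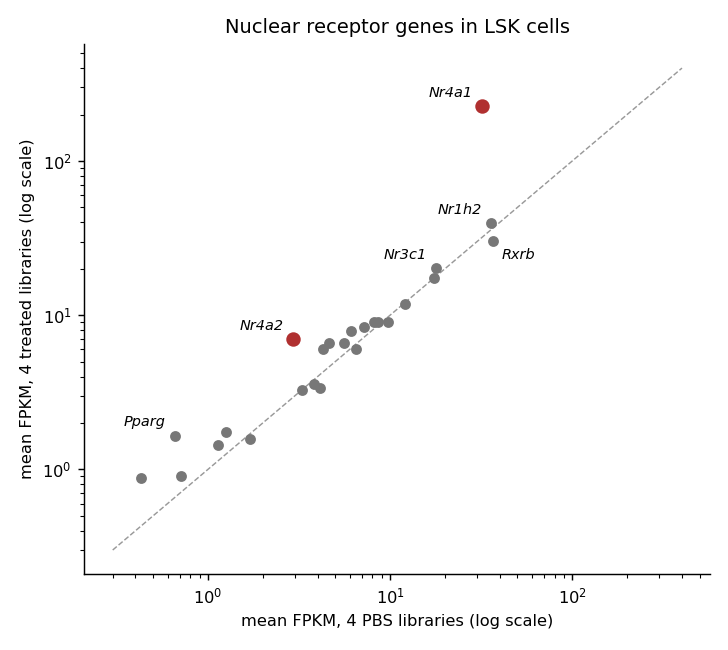
Mean FPKM in the 4 PBS libraries (x axis, log scale) and in the 4 treated libraries (y axis, log scale) of Nr4a1, Nr4a2 and the 23 other nuclear receptor genes tested, with a dashed line at equality. Nr4a1, at 31.8 and 225.4 FPKM, lies farthest above the line. Pparg, labelled after its value was seen, had the highest log2 difference of the 23 others, at 0.50, on low FPKM.

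Genes that act upstream of NR4A transcription, or bind the proteins, were examined as a list of 47: CREB family members and their CRTC coactivators, MEF2 and NFAT factors, class II histone deacetylases, calcineurin and MAP kinase subunits, retinoid X receptors, corepressors and Bcl2. Of the 46 tested, limma called 0 higher and 0 lower after glucose and 0 after glucose with lipid. Over all genes it called 0.0922% higher and 0.00838% lower after glucose, and 0.0587% and 0.0168% after glucose with lipid. The 0 of 46 is near those shares. At an unadjusted p under 0.05, 2 were higher and 1 lower after glucose, and 3 higher and 4 lower after glucose with lipid, where 14.9% and 11.8% of all genes passed in either direction. The list's median log2 difference was 0.14 after glucose and 0.01 after glucose with lipid, against 0.00 and 0.01 over all genes. The largest mean differences were those of Bcl2, Hdac7, Atf1 and Rxrb. Bcl2, the survival protein that NR4A1 can bind outside the nucleus, had 20.05 to 21.63 FPKM in treated and 23.46 to 28.88 in PBS libraries, with a log2 difference of -0.34 ± 0.09 (limma adjusted p = 0.241) over all libraries. Hdac7, a MEF2 corepressor, differed by 0.31 ± 0.12 and Atf1, a CREB relative, by -0.30 ± 0.13 (limma adjusted p = 0.33 and 0.348).

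A second list held 32 genes reported in other cells to respond to NR4A proteins, among them AP-1 subunits, T cell exhaustion genes and gluconeogenic enzymes. Of the 19 tested, limma called 0 in either direction in each treatment comparison. Over all genes it called 0.0922% higher and 0.00838% lower after glucose, and 0.0587% and 0.0168% after glucose with lipid. The 0 of 19 is near those shares. At an unadjusted p under 0.05, 9 were higher and 1 lower after glucose, against 6.41% and 8.44% of all genes, and 3 higher and 2 lower after glucose with lipid, against 5.87% and 5.93%. This list too was drawn up with earlier results of these samples known, so these counts are not independent evidence of a response to NR4A. Over all treated against all PBS libraries limma called 2 of the 19 higher, Klf2 and Junb, and 0 lower, against 0.31% and 0.0168% of all genes. Both are also in the list of immediate early genes below. Klf2, a factor of quiescence in lymphocytes, stood at 27.48 and 30.98 FPKM after glucose and 61.6 and 57.15 after glucose with lipid, against 17.45, 18.58, 7.49 and 15.97 in PBS H, I, J and K. It rose by 1.5 ± 0.20 on the log2 scale (limma adjusted p = 0.0298). Junb, an AP-1 subunit, stood at 162 and 150.6 FPKM after glucose and 216.1 and 207 after glucose with lipid, against 75.9 to 111.8 in PBS. It rose by 0.96 ± 0.10 (limma adjusted p = 0.0154). Without PBS I, glucose A or glucose B, or with no filter on low values, 0 of the 2 were called, and without PBS H or glucose with lipid H only Junb was, in runs added after the data were seen. Jun differed by 0.49 ± 0.10 and Tox by 0.43 ± 0.17, without passing (limma adjusted p = 0.157 and 0.328).

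Immediate early genes other than NR4A were higher in the same libraries. The summed FPKM of 42 of them was 5717 to 6550 in treated and 2681 to 3422 in PBS libraries, and 28 of the 40 tested were higher in every treated than in every PBS library, against 3.55% of all genes. Limma called 7 of the 40 higher after glucose and 4 after glucose with lipid (0.0922% and 0.0587% of all genes), and 0 lower in either comparison, where 1 and 0 were lower at an unadjusted p under 0.05. The 7 were Dusp5, Btg2, Nfkbiz, Sik1, Plk2, Cd69 and Ppp1r15a, and the 4 were Dusp5, Nfkbiz, Sik1 and Plk2. This list was drawn up with earlier results of these samples known and is not independent evidence of its direction. Whether the NR4A values and those of this list have a common source was not tested.

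The counts moved with single libraries. After glucose 3 were called without glucose A, 4 without PBS J and 13 without PBS K. After glucose with lipid 0 were called without PBS H or without PBS I, 2 without glucose with lipid H, 13 without glucose with lipid I and 11 without PBS J or without PBS K. With PBS J and K as controls 13 were called after glucose with lipid.

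Sik1, a kinase induced by cAMP that phosphorylates the CREB coactivators CRTC and so limits their action, stood at 46.09, 36.93, 47.42 and 44.27 FPKM in glucose A, B and glucose with lipid H, I. In PBS it ranged from 11.3 to 15.29 FPKM. It rose by 1.7 ± 0.16 on the log2 scale after glucose (limma adjusted p = 0.00699) and by 1.66 ± 0.16 after glucose with lipid (limma adjusted p = 0.0166). Crem, an inducible CREB family repressor, was in the list of genes that act upstream of NR4A or bind it, and was not called.

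Whole profiles were compared by the root mean square distance between genes over the 8 libraries, after each gene's mean log2 value had been subtracted. This is a description over 9192 genes at a mean of 3 FPKM or more over the 8 libraries. The NR4A genes were left out of these, as were clone-named and small noncoding genes, such as Gm numbers and names ending in Rik. Treated and PBS libraries set most of the distance. The nearest to Nr4a1 were Plk2, a polo-like kinase (distance 0.43), Atf3, a stress-induced transcription factor (0.44), Btg2, an antiproliferative gene (0.53), Nfkbiz, an atypical IkB protein (0.56), and Dusp5, a nuclear ERK phosphatase (0.56). A gene with no variation would lie at 1.44. All 5 had every treated library above every PBS library, as 3.55% of the genes tested did. Their choice by nearness to Nr4a1 in these same libraries largely fixed this. Plk2 ran from 54.85 to 72.9 FPKM in treated and from 5.28 to 18.11 in PBS, and Atf3 from 7.24 to 20.89 FPKM against 0.0844 to 1.04. In glucose A, where Nr4a1 was highest, all 5 lay below it on this scale.

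The nearest to Nr4a2 were other genes than those nearest to Nr4a1. They were S1pr1, a sphingosine 1-phosphate receptor of leukocyte trafficking (distance 0.22), Pnrc1, a nuclear receptor coactivator (0.24), Ppp1r15a, a phosphatase subunit that restores translation after stress (0.25), Cdkn1a, the cell cycle inhibitor p21 (0.26), and Stk17b, a death-associated protein kinase (0.27), where no variation would give 0.668. Like Nr4a2, each of these had PBS H and I above PBS J and K, as 24.4% of the genes tested did. Their choice by nearness to Nr4a2 in these same libraries largely fixed this. S1pr1 stood at a mean of 16.1 FPKM in PBS H and I and 9.42 in PBS J and K, against 24.6 after glucose and 25.3 after glucose with lipid. Pnrc1 stood at 182 and 95 FPKM in these PBS pairs, and its treated libraries, at 180.7 to 264.4 FPKM, overlapped PBS H and I. Nr4a1 and Nr4a2 were 0.905 apart. The nearest to Nr4a3, at 0.09 to 0.102, were Tcta, Evi2b, Ebi3, Snhg1 and Cdc42ep3, but its whole variation on this scale was only 0.27.

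**Figure D5:**
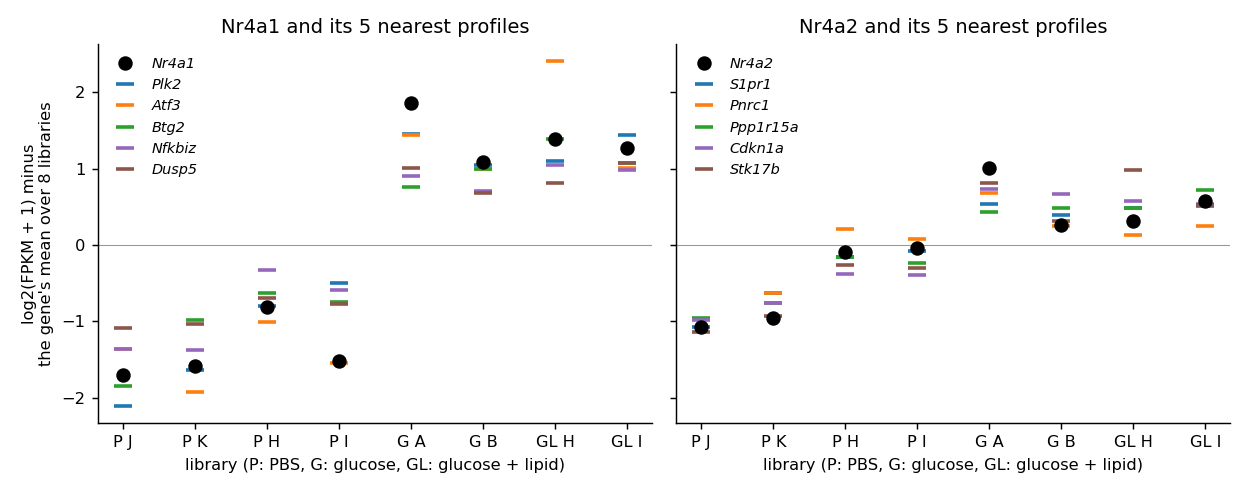
Values of log2(FPKM + 1) minus each gene's mean over the 8 libraries (y axis) in each library (x axis) for Nr4a1 and Nr4a2 (black points) and the 5 genes with the nearest profile to each (coloured bars). Nr4a1 separates into PBS and treated libraries, and in the Nr4a2 panel PBS J and K lie below PBS H and I.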

How the data were processed

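RNA of about 10000 sorted LSK cells per library was amplified and sequenced, and reads were processed by the authors on mm10 with, per the submitters' processing notes, Cuffnorm 2.2.1, SAMtools 1.0, TopHat2 2.0.13 and Bowtie2 2.2.3. The deposited tables hold FPKM for 23284 genes in 8 libraries. The unit was read from the values and the tools. Whether counting used strand is not stated there.

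The 3 NR4A genes, the gene lists and the tests were chosen with earlier results of these data known. Genes at 1 FPKM or more in at least 2 libraries (11931) were tested as log2(FPKM + 1) with limma 3.58.1 in R 4.3.3 (mean-variance trend, 1 fit of all 8 libraries, Benjamini-Hochberg adjustment, threshold 0.05). The pseudocount of 1 understates differences of low genes. The test was checked on simulated data. From each list the text names every gene called in a treatment comparison, the 4 with the largest mean difference at a mean of 3 FPKM or more, and, for nuclear receptors, the 3 most abundant. It also names the 5 nearest profiles per NR4A gene. Alternatives covered the pseudocount, the filter, the scaling, the control pair, the libraries in the fit, a replicate block and each library left out.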

Additional observations from a re-analysis of the deposited data

Results flagged for a closer look

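Among the 4 PBS libraries, single values of 2 NR4A genes stood apart from the others. Nr4a1 in PBS H was 46.9884 FPKM, and its distance to the next library was 0.84 of the range of the group, above Dixon's 95% limit for 4 values. Nr4a3 in PBS I was 0.0856949 FPKM, the only PBS library not listed at 0, so its distance was the whole range (1). With the other 3 values at 0 that ratio is 1 for any value above 0, here at most about 3 fragments, and says nothing more. For Nr4a1, chance alone passes this limit in about 1 of 20 groups, and 3 genes were examined in this way.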

How the results depend on the processing

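Of 451 alternative values for 34 results, 405 stayed, 44 moved and 2 reversed. Staying means within the spread between replicates, on the same side of the threshold or, for counts, within 1.5 times. Many of the 405 were list counts of 0 that stayed at 0. Others left out a library that the comparison does not use, which cannot change its difference. The 405 is therefore not a measure of how stable the results are. With the other PBS pair as controls the log2 difference was 2.64 for Nr4a1 and 0.70 for Nr4a2 after glucose, and 2.97 and 1.45 after glucose with lipid. With all 4 PBS libraries it was 1.17 and 0.98 for Nr4a2. With a pseudocount of 0.1 it was 2.07 for Nr4a2 after glucose, and for Nr4a3 it was 2.1 after glucose, 2.28 after glucose with lipid, 2.19 over all libraries, 0.63 between the treatments and 0.45 between the PBS pairs. With PBS libraries listed at 0, the Nr4a3 values against PBS are set by the pseudocount and stand for no fold change. Without glucose A, glucose with lipid against glucose reversed to 0.25 for Nr4a1 and 0.18 for Nr4a2. The cause was not tested.

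With each library left out in turn, the glucose difference ranged from 2.73 to 3.51 for Nr4a1, 1.28 to 2.02 for Nr4a2 and 0.31 to 0.52 for Nr4a3. Glucose with lipid against glucose ranged from -0.53 to 0.25, -0.56 to 0.18 and 0.12 to 0.33 in the same order, and the difference of effects from 0.064 to 0.27 for Nr4a3. Genes reported to respond to NR4A called higher numbered 0 to 1 after glucose and 0 to 2 after glucose with lipid. Immediate early genes called higher numbered 3 to 13 and 0 to 13 in these comparisons.

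For glucose with lipid, 1 reported gene was called with all 4 PBS libraries (Junb) and 2 with the other pair (Junb and Klf2). With no filter 1 other nuclear receptor, Esrrb, was called after glucose, named after its value was seen. Immediate early genes called after glucose numbered 3 with all 4 PBS libraries and 4 with no filter. After glucose with lipid they numbered 0 with no filter, 0 with only the 4 libraries compared, 0 with the replicate block and 13 with the other pair. Same-numbered libraries of glucose with lipid and PBS H and I correlated at r = 0.066 over 11931 genes. They share a letter in their names, and the labels do not say that it marks a shared animal, batch or day. The replicate block left 1 gene called higher and 1 lower, against 7 and 2 without it.

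With 2 libraries per group, and Nr4a3 at a few fragments in PBS, small differences were not detectable.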

Other observations

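The count of 4 or more CRE cores was also looked up in other genes, a set chosen after the NR4A promoters had been read. It was found in 45 of 32851 windows, belonging to 44 genes, of which 33 besides the NR4A genes were tested. Over all treated against all PBS libraries, 15 of the 33 had a log2 difference above 0, against 48.7% of all genes tested. Their median was -0.05 against -0.01 over all genes. Limma called 0 of the 33 higher and 0 lower, against 0.31% and 0.0168% of all genes. These counts are near the shares over all genes.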
